A study of Mus musculus with 20 samples.

Results

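Suz12 binding was measured by ChIP-seq at 10 Sox genes of differentiated lineages in mouse embryonic stem (ES) cells whose transcription was blocked. The genes are Sox1, Sox7, Sox8, Sox9, Sox10, Sox11, Sox14, Sox17, Sox18 and Sox21, a named list that leaves out Sox2, taken from 21631 protein-coding genes. E14-WT cells, which are wild type, were cultured with serum and LIF on gelatin and were treated with DRB at 100 µM or with triptolide at 10 µM. DRB inhibits the kinase that lets RNA polymerase II elongate, and triptolide acts on the TFIIH helicase at initiation. From 20 samples, the 8 Suz12 libraries taken before and at the end of treatment were used. They are 2 at 0 h and 2 at 12 h for DRB, and 2 at 0 h and 2 at 9 h for triptolide. The other 12 samples were not analysed here. Replicates are biological per the series design, but nothing names separate cultures, so p-values measure the spread between these libraries, which may be technical. No RNA was measured in the files used, so the cell type was not checked against expressed markers.

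Sox proteins bind DNA through an HMG box and bend it, and they are grouped by similarity of that box. SoxB1 factors such as Sox1 mark neural progenitors, and the SoxB2 factors Sox14 and Sox21 act in the same tissue largely as repressors. SoxC factors such as Sox11 act in immature neurons, SoxE factors (Sox8, Sox9 and Sox10) in neural crest, glia, cartilage and testis, and SoxF factors (Sox7, Sox17 and Sox18) in endoderm and vessels. Suz12 belongs to the enzyme complex PRC2, which places the repressive mark H3K27me3. In ES cells PRC2 typically covers CpG-rich starts of silent lineage genes.

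Start-site sequences show the CpG content of the DNA that these peaks cover. RefSeq promoter windows (GRCm38.p6, 250 bases before to 50 after the start) were matched for 5 of the 10 genes. Of these 5, the 2 with the lowest and the 2 with the highest change in Suz12 counts are printed. They run 5′ to 3′ on the gene's strand, with every CG in capitals. Sox8 is in the higher pair although its log2 change was −0.23. Sox17 (−0.72) and Sox9 (−0.49) had no matched window. The Sox14 window lies in the region of that gene that holds its start, which is not its widest one. The windows are chr9:99876121-99876420, chr14:118236981-118237280, chr17:25570637-25570936 and chr12:27342669-27342968, all on the minus strand.
Sox14: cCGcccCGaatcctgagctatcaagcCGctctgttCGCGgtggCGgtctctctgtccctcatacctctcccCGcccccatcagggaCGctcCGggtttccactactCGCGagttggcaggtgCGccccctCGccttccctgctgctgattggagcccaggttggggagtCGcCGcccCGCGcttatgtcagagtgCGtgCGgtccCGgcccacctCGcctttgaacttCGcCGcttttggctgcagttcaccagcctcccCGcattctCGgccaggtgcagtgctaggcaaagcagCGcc
Sox21: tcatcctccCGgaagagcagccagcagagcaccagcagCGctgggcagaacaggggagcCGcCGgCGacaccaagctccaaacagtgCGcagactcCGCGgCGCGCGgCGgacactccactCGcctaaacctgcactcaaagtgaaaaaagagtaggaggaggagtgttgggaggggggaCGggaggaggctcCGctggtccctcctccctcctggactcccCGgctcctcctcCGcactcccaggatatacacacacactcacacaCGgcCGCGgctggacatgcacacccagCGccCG
Sox8: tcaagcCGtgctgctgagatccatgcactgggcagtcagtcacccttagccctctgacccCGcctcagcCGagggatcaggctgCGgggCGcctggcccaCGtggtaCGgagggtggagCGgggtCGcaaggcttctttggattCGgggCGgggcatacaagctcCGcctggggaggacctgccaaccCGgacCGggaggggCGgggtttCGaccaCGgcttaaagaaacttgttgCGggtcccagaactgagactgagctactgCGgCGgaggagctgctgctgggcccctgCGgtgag
Sox11: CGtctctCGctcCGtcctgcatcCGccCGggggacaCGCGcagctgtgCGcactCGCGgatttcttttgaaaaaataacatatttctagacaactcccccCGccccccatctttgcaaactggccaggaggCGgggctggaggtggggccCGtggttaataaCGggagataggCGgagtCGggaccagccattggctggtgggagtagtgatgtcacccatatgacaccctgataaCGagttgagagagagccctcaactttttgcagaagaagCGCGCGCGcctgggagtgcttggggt

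These windows held 26 CG at Sox14, 22 at Sox21, 21 at Sox8 and 21 at Sox11, and the window of Sox1 held 37. Sox8 and Sox11 thus hold the same number. The median was 14 over 17274 promoters of protein-coding genes and 21.5 over the 2218 promoters of genes with a Suz12 peak in all 8 lists. The motif CGCG (its own reverse complement, overlapping matches counted) occurred 5 times at Sox11, 4 at Sox21, 3 at Sox14, 10 at Sox1 and 0 times at Sox8. It occurred in 50% of all promoters of this length and in 73.5% of those of genes with a peak in all 8 lists. A match describes the letters of the window only.

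All 10 genes carried a Suz12 peak within 1 kb of an annotated end in every one of the 8 lists. Over all protein-coding genes 3003, or 13.9%, did so. Merging all peaks that overlapped by 1 bp gave 11943 regions, of which 4281 had a peak in all 8 lists and are called kept regions here. The 10 genes had 16 regions, and the widest of each gene stands for it below. The median width of these 10, each a gene's widest, was 3832 bp, against 2370 bp over all kept regions without such a choice. Together they were 0.0837% of the regions and held 0.413 to 0.452% of the reads counted over all regions in untreated libraries. In treated libraries they held 0.379 to 0.436%, so the ranges overlap.

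Suz12 density differed more than 2-fold among the genes before treatment. It is given as counts per 1e6 reads counted over regions after TMM scaling (CPM), per kb of the counted peak. Values are means of the 4 untreated libraries. The counted peak is the widest over all 8 lists. At Sox11 it was a treated peak of 3336 bp, against untreated peaks of 1696 to 2407 bp. It was also a treated peak at Sox1, Sox7 and Sox18. At Sox8, Sox9, Sox10, Sox14, Sox17 and Sox21 it was an untreated peak. Sox21 had 151 CPM per kb, Sox18 149, Sox17 142 and Sox9 131. Sox1 had 118, Sox14 116, Sox7 88.5, Sox10 77.2, Sox11 75.1 and Sox8 63.3. The median over the kept regions was 58.8. Among the 4 densest genes the ranges of single libraries overlapped, from 127 to 175 at Sox21 and from 123 to 144 at Sox9. Sox14, at 110 to 120, lay above Sox7, at 76.7 to 99.4, in every library. Sox11, at 62.8 to 86.0, overlapped Sox8 (61.8 to 65.3) and Sox10 (74.4 to 79.2). Library by library, it lay above Sox8 in all 4, by as little as 62.8 against 62.6.

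**Figure D1:**
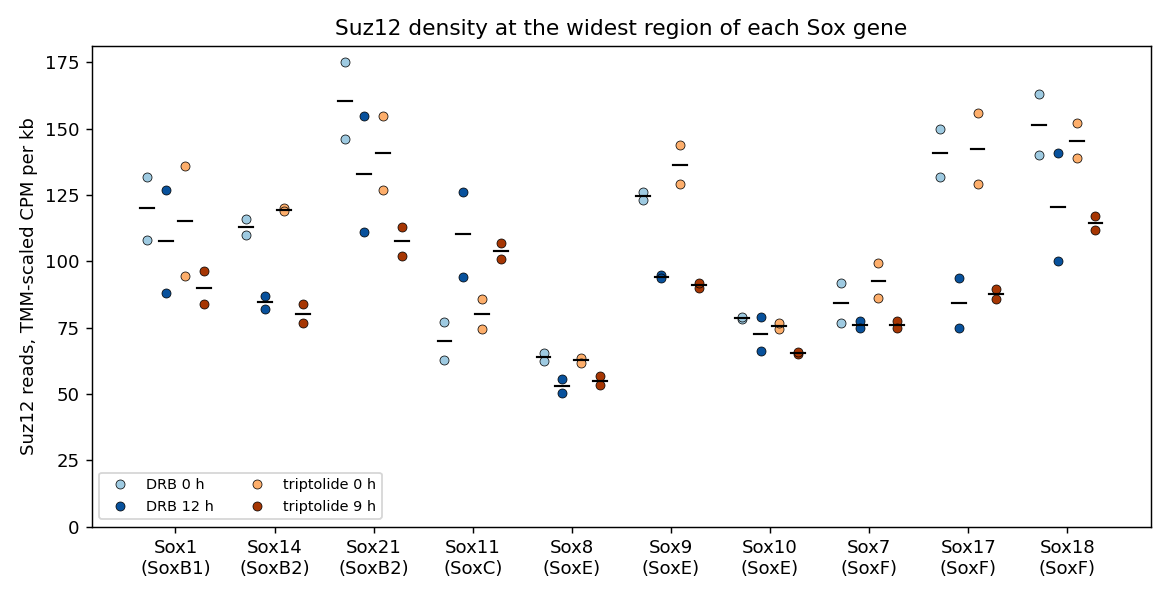
Suz12 density (TMM-scaled CPM per kb of the counted peak, linear axis from 0) at the widest region of each gene; points are single libraries coloured by group and bars are means of 2. At Sox11 the 4 treated libraries, at 94.3 to 126, lie above the 4 untreated ones, at 62.8 to 86.0, while at Sox17 they lie below.

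The question of the comparison was how Suz12 counts at these genes differ once transcription has been blocked. Over both drugs, counts fell at Sox8, Sox9, Sox14, Sox17, Sox18 and Sox21 and rose at Sox11, while Sox1, Sox7 and Sox10 did not pass. Of these 6 falls at the widest regions only that of Sox17 was also called when counts were scaled to the kept regions, where Sox8, Sox18 and Sox21 changed sign. The Sox14 region that holds the start, which is not its widest, was called lower under that scaling (−0.27, adjusted p = 0.00506). These are calls at an adjusted p under 0.05 in edgeR's quasi-likelihood test over all regions. Lower calls made up 28.9% of all regions and 59.1% of the kept regions, and higher calls 27.9% and 10.3%. The 6 of 10 therefore lie near the share of kept regions. The median log2 fold change was −0.29 for the 10 genes, −0.38 for the kept regions and 0.05 for all regions.

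This split moved with the scaling, and every change here is relative to the reads over regions. With counts scaled to the kept regions 1 gene was lower (Sox17) and 1 higher (Sox11) at the widest region. Of all regions 10.7% were then lower and 49.2% higher, and of kept regions 23.3% and 27%. With the sum of all counts 3 genes were lower (Sox9, Sox14 and Sox17) and 1 higher (Sox11), against 18.7% and 39% of all regions and 40.6% and 17.7% of kept regions. These scalings moved the median of all regions to 0.41 and 0.25. They moved the median of the 10 genes to 0.08 and −0.09. Sox11 rose and Sox17 fell under all 3 scalings. Untreated and treated libraries shared no sequencing lane number, so lane and treatment cannot be told apart.

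Sox11, the SoxC gene that acts in developing neurons, has 1 region (chromosome 12, 27340637 to 27343981) from 1263 bp before to 2081 bp after its start. It had 257 and 209 CPM at DRB 0 h and 421 and 315 at DRB 12 h. The triptolide libraries had 248 and 287 at 0 h and 335 and 355 at 9 h. All 4 treated libraries were higher than all 4 untreated ones, which held at 24.4% of all regions and 8.46% of kept regions. Its counted peak was a treated one, longer than any untreated peak, and the part of that choice in the rise was not tested. With counts averaged over the lists, Sox11 rose by 0.50 on the log2 scale over both drugs (adjusted p = 0.00182). With the counted peak Sox11 rose 1.43-fold over both drugs, a log2 change of 0.52 ± 0.11 (SE, adjusted p = 0.00164). It was 0.66 ± 0.16 under DRB (SE, adjusted p = 0.00675), a call lost without DRB 0 h index TGACCA (0.51, adjusted p = 0.0931, the highest of 15 alternatives, with 0.000288 the lowest). It was 0.37 ± 0.15 under triptolide (SE, adjusted p = 0.0714), where it was called with counts scaled to the kept regions (0.77, adjusted p = 0.00105) and in 5 of 15 alternatives in all (adjusted p from 0.00105 to 0.345). Without either DRB 12 h library it was called at 0.40 (adjusted p = 0.0153 and 0.0156). Over the 15 alternatives of the value over both drugs, adjusted p-values ran from 1.66e-05 to 0.0145. Within each index, the barcode of the DRB libraries, the 12 h to 0 h difference was 0.71 and 0.59 on the log2 scale.

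The Sox11 peak was also longer after treatment. It measured 2407 and 1696 bp in the DRB 0 h lists and 1882 and 2402 bp in the triptolide 0 h lists. In treated lists it measured 2802, 3336, 3162 and 2918 bp, every one longer than any untreated peak, as at 13.1% of kept regions, while 0.467% were shorter in every treated list. Treated peaks began 1092 to 1263 bp before it, whereas untreated peaks began 751, 734 and 30 bp before it and, in DRB 0 h replicate 2, 65 bp after it. Their other ends overlapped, at 1655 to 1851 bp after the start in untreated and 1695 to 2081 bp in treated lists. Depth moved with this under both drugs. Reads over regions went from 3699984 and 3070236 at 0 h to 4334380 and 4441627 at 9 h of triptolide. Under DRB they went from 1323928 to 2416531 with index ATCACG and from 4396751 to 7340033 with index TGACCA. The part of depth in the peak length was not tested. The median ratio of treated to untreated peak length was 1.03 over the kept regions and 1.46 at Sox11. Peaks overlapped the printed promoter window in 7 of 8 lists at Sox11 and in 8 of 8 at Sox14, Sox21, Sox8 and Sox1. No other gene of the 10 had treated and untreated peak lengths that did not overlap.

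**Figure D2:**
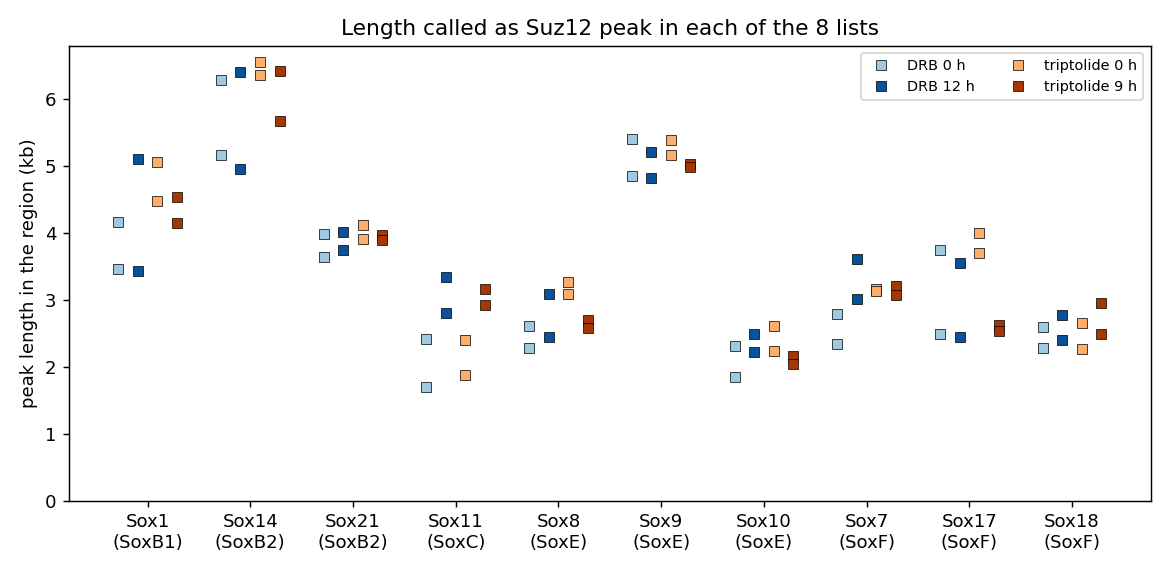
Length called as Suz12 peak (kb, linear axis from 0) in the widest region of each gene; squares are single peak lists coloured by group. The 4 treated lists of Sox11, at 2802 to 3336 bp, lie above its 4 untreated lists, at 1696 to 2407 bp, and at the other 9 genes the groups overlap.

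Sox17, a SoxF factor of definitive endoderm and arterial endothelium, had the lowest log2 fold change of the 10. Its widest region (chromosome 1, 4491282 to 4495270) lies wholly within the gene (4490928 to 4497426). It had 597 and 528 CPM at DRB 0 h against 375 and 298 at DRB 12 h. With triptolide it had 513 and 622 at 0 h against 342 and 357 at 9 h. No treated library reached the lowest untreated one, as at 25.2% of all regions and 53% of kept regions. Its counted peak was an untreated one of 3989 bp. With counts averaged over the lists, the log2 change over both drugs was −0.71 (adjusted p = 9.98e-05). With the counted peak the level over both drugs was 0.607 times the untreated one, a log2 change of −0.72 ± 0.10 (SE, adjusted p = 7.77e-05). Scaled to kept regions, it was −0.35 (adjusted p = 0.00407). The change was −0.74 ± 0.14 under DRB and −0.70 ± 0.14 under triptolide (SE, adjusted p = 0.00208 and 0.0021). A second region at the upper-coordinate end (4495822 to 4498452) went from 219 to 279 CPM in untreated to 98.0 to 145 in treated libraries, a change of −0.94 ± 0.11 (SE, adjusted p = 2.93e-05). Scaled to kept regions it was −0.57 (adjusted p = 0.000874). Another, short region at the other end (4490245 to 4491145), with a peak in 5 lists, did not pass at −0.53 ± 0.32 (SE, adjusted p = 0.17).

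The other SoxF genes act in vessel formation. Sox18 (region at chromosome 2, 181669841 to 181672807, over 99.8% of the gene) had 481 and 412 CPM at DRB 0 h and 416 and 295 at 12 h. Its triptolide libraries had 411 and 449 at 0 h and 329 and 345 at 9 h, so that treated and untreated libraries overlapped through 1 DRB 12 h library. The fall of 0.34 ± 0.11 on the log2 scale (SE, adjusted p = 0.0169) turned to a value of 0.03 when scaled to kept regions. Without DRB 0 h index ATCACG, triptolide 0 h replicate 2 or triptolide 9 h replicate 1 it was no longer called (adjusted p = 0.0676, 0.0603 and 0.06, in a range of 0.000493 to 0.83 over all alternatives). Sox7 (chromosome 14, 63941407 to 63945081) did not pass, at −0.21 ± 0.09 (SE, adjusted p = 0.0616). It had 277 to 359 CPM in untreated and 270 to 279 in treated libraries. Without DRB 0 h index TGACCA, Sox7 was called at −0.28 (adjusted p = 0.0337, in a range of 0.0337 to 0.944 over all alternatives).

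Sox9, which directs cartilage and testis formation, had the lowest value of the SoxE genes. Its region (chromosome 11, 112780422 to 112785939) covers 67.2% of the gene. It had 681 and 667 CPM at DRB 0 h and 513 and 506 at 12 h. With triptolide it had 700 and 777 at 0 h and 487 and 497 at 9 h, and no treated library reached an untreated one. The change was −0.49 ± 0.07 (SE, adjusted p = 0.000131) over both drugs, −0.40 ± 0.10 under DRB and −0.59 ± 0.10 under triptolide. With counts scaled to the kept regions it was −0.13 and not called (adjusted p = 0.0955).

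The SoxE genes Sox8 and Sox10 act in glia and neural crest. Sox8 (chromosome 17, 25568637 to 25571994) had 202 to 214 CPM in untreated and 164 to 185 in treated libraries, which did not overlap. It fell by 0.23 ± 0.09 on the log2 scale (SE, adjusted p = 0.0341), a call that was lost without any 1 library other than DRB 12 h index ATCACG and whose sign turned, to 0.13, when counts were scaled to kept regions. Adjusted p-values for Sox8 ran from 0.0207 to 0.731 over all alternatives. Sox10 (chromosome 15, 79162347 to 79165209) had 194 to 207 CPM in untreated and 170 to 206 in treated libraries. Its change of −0.17 ± 0.09 did not pass (SE, adjusted p = 0.125). Without DRB 12 h index ATCACG, the highest treated library, it was called at −0.22 (adjusted p = 0.0414, in a range of 0.0414 to 0.752).

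Sox14, a SoxB2 gene of interneurons, has a pair of regions that lie 1 bp apart. The wider one (chromosome 9, 99867719 to 99874264) lies beyond the 3′ end and reaches 7.7% of the gene. It had 761 and 720 CPM at DRB 0 h, 537 and 570 at 12 h, 789 and 777 at triptolide 0 h, and 548 and 503 at 9 h. The 4 treated libraries lay below the 4 untreated ones. It fell by 0.50 ± 0.07 on the log2 scale (SE, adjusted p = 0.000129), and by 0.13 without a call when scaled to kept regions (adjusted p = 0.106). The region that holds the start (99874266 to 99877678) had a density of 133 CPM per kb before treatment and changed by −0.63 ± 0.08 (SE, adjusted p = 3.58e-05). Scaled to kept regions it was called at −0.27 (adjusted p = 0.00506).

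Sox21, a SoxB2 gene of neural progenitors (chromosome 14, 118233627 to 118237749, over 89.6% of the gene), had 720 and 599 CPM at DRB 0 h and 639 and 457 at 12 h. With triptolide it had 523 and 637 at 0 h and 420 and 463 at 9 h, so the groups overlapped. It fell by 0.33 ± 0.11 on the log2 scale (SE, adjusted p = 0.0256), which turned to a value of 0.04 when scaled to kept regions. The call was lost without DRB 0 h index ATCACG, DRB 12 h index TGACCA, triptolide 0 h replicate 2 or triptolide 9 h replicate 1. Adjusted p-values then ran from 0.0745 to 0.11, and from 0.00127 to 0.766 over all alternatives. A second region beyond its 3′ end (118230187 to 118232995) did not pass, at −0.39 ± 0.16 (SE, adjusted p = 0.0588).

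Sox1, an early marker of neural fate, has 3 regions. The widest (chromosome 8, 12393965 to 12399064) runs from 1554 bp before to 3545 bp after the start. It had 672 and 548 CPM at DRB 0 h, 647 and 449 at 12 h, 481 and 693 at triptolide 0 h, and 427 and 490 at 9 h. The triptolide 0 h libraries alone spanned most of the range of all 8, and the change of −0.26 ± 0.14 did not pass (SE, adjusted p = 0.125). It was called at −0.38 without DRB 12 h index ATCACG (adjusted p = 0.0126) or triptolide 0 h replicate 1 (adjusted p = 0.0373), in a range of 0.0126 to 0.713 over all alternatives. The region past the upper-coordinate end (12400226 to 12403411) varied less. It had 213 to 233 CPM in untreated and 158 to 164 in treated libraries and fell by 0.45 ± 0.08 on the log2 scale (SE, adjusted p = 0.000611), and by 0.09 without a call when scaled to kept regions. A short region between them (12399445 to 12400164), with a peak in 2 lists and 5.20 to 20.6 CPM, fell by 0.77 ± 0.26 on the log2 scale (SE, adjusted p = 0.0213), and by 0.41 without a call when scaled to kept regions. The RefSeq annotation places the lncRNA Sox1ot over all 3 regions.

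Fewer genes were called under each drug alone. Each of these tests used 1 estimate of the spread shared by all 8 libraries. The p-values of a drug therefore do not measure the spread of its own replicates only. Under DRB 3 genes were lower (Sox9, Sox14 and Sox17) and 1 higher (Sox11), against 19.2% and 18.1% of all regions and 42.4% and 6.82% of kept regions. Under triptolide the same 3 were lower and 0 higher, against 21.9% and 19.3% of all regions and 48.7% and 6.77% of kept regions. Without DRB 0 h index TGACCA 0 genes were higher under DRB. With the DRB groups fitted alone 1 gene was lower, and with the triptolide groups fitted alone 6 were. Scaled to kept regions, 1 was lower under DRB (Sox17) and 0 under triptolide, and Sox11 was higher under both. Lower calls then made up 4.78% of all regions and 10.8% of kept regions under DRB, and 4.75% and 11% under triptolide. Higher calls made up 33% and 18.5% under DRB, and 38% and 20.5% under triptolide.

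The test of the difference between the drugs called 0 of the 10 genes in edgeR, also 0 in DESeq2 and 0 at an unadjusted p under 0.05. It called 2 of all regions (0.0167%) and 1 of the kept regions (0.0234%), with the DRB change below the triptolide change, while 192 of all regions had an unadjusted p under 0.05. Differences (DRB change minus triptolide change) ran from −0.08 to 0.29 on the log2 scale with SEs of 0.15 to 0.27, so differences of that size were not detectable at this depth and replication. At Sox11 the difference was 0.29 ± 0.22 (SE).

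**Figure D3:**
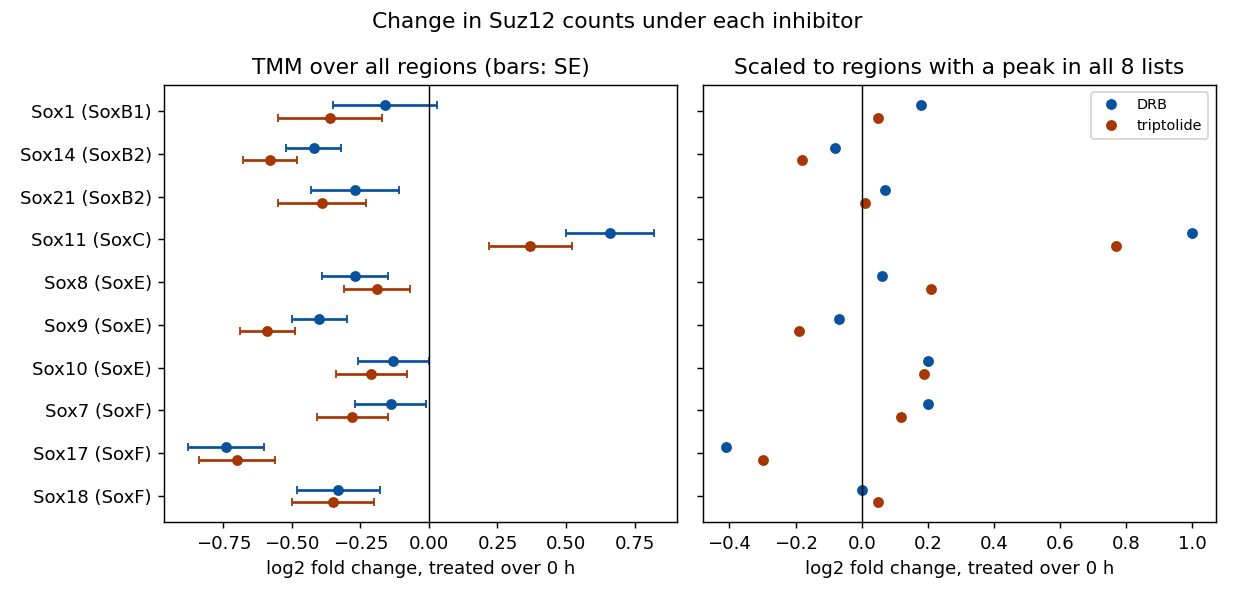
Log2 fold change of Suz12 counts under DRB and triptolide at the widest region of each gene, with TMM scaling over all regions (left, bars are SE) and with counts scaled to kept regions (right, without errors); the panels have separate axes. Sox11 lies to the right of 0 and Sox17 to the left in both panels, and Sox8 moves from −0.27 and −0.19 to 0.06 and 0.21.

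A ratio of reads within a library needs no scaling. Sox11 had 0.397 to 0.484 reads for each read over the widest Sox17 region in the 4 untreated libraries and 0.981 to 1.12 in the 4 treated ones. Against Sox8, with the same number of CG in its promoter window, the ratio was 1.02 to 1.42 in untreated and 1.92 to 2.30 in treated libraries. Both pairs were chosen after their values were seen and carry no test. In CPM per kb, Sox11 was below Sox14 in every untreated library (at most 86.0 against at least 110). It was above Sox14 in every treated one (at least 94.3 against at most 87.1). The counted peak was a treated one of 3336 bp at Sox11 and an untreated one of 6546 bp at Sox14.

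Other Sox genes were spread over both directions. Of 9, 8 had a region, with 4 higher (Sox2, Sox4, Sox12 and Sox13) and 2 lower (Sox5 and Sox6) over both drugs. The regions of Sox2 and Sox12 came from treated peaks alone, so their rises follow in part from that choice and carry no test. At Sox4 and Sox13 the counted peak was also a treated one, of 2739 and 2399 bp. Their untreated peaks measured at most 2205 and 1974 bp. Sox15 had no peak in any list, and Sox3 (−0.16 ± 0.12) and Sox30 (0.00 ± 0.12, SE) did not pass, although Sox30 was called higher at 0.37 when scaled to kept regions (adjusted p = 0.0121). Sox4 and Sox12 are the other SoxC genes. They were singled out after the rise of Sox11 was seen, and higher calls made up 27.9% of all regions and 10.3% of kept regions. Sox4 (chromosome 13, 28950636 to 28953998), with a peak in all 8 lists, had 190 to 243 CPM in untreated and 302 to 398 in treated libraries, a log2 rise of 0.72 ± 0.11 (SE, adjusted p = 0.000134). Sox12 (chromosome 2, 152396298 to 152399276), with a peak in 3 treated lists alone, went from 23.8 to 36.0 CPM to 36.4 to 90.8 CPM, a log2 rise of 0.86 ± 0.17 (SE). Like Sox11, Sox4 had longer peaks in every treated list (2563 to 3283 bp) than in any untreated one (1953 to 2205 bp). So did Sox13 (2258 to 2399 against 1656 to 1974 bp) and Sox30 (1775 to 1938 against 1338 to 1522 bp). Sox2 had peaks in treated lists only, so no untreated length could be compared. Peaks were longer in every treated list at 13.1% of kept regions and shorter in every one at 0.467%. As at Sox11, the part of depth was not tested. Among SoxD genes Sox13 rose by 0.71 ± 0.12 on the log2 scale (SE). Sox6 fell by 0.94 (−0.58 when scaled to kept regions), and Sox5 fell by 0.28, which turned to 0.08 under that scaling. Sox2, a pluripotency gene with no untreated peak, had 10.7 to 13.4 CPM in untreated and 24.8 to 30.9 in treated libraries. Its log2 rise was 1.16 ± 0.17 (SE).

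**Figure D4:**
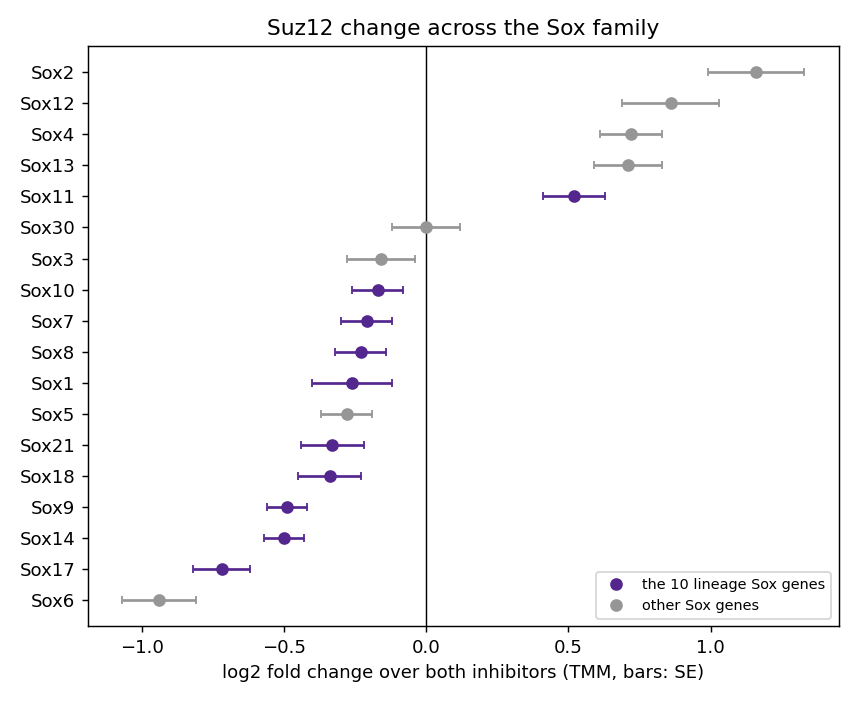
Log2 fold change of Suz12 counts over both inhibitors (TMM scaling, bars are SE) at the widest region of the 18 Sox genes with one, in order of change. Sox11, at 0.52, is the only gene of the 10 among the 5 highest values, next to Sox2, Sox12, Sox4 and Sox13. The regions of Sox2 and Sox12 had no untreated peak.

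Partners and targets of these factors were read from 4 lists of named genes. For SoxE in neural crest and glia, 10 of 14 regions were lower and 3 higher over both drugs, at a median of −0.44. Olig2, a glial determinant, changed by −0.57 ± 0.07 and Olig1 by −0.60 ± 0.11 (SE; −0.20 and −0.23 when scaled to kept regions). For Sox9 in cartilage and gonad, 8 of 9 were lower and 1 higher (median −0.49), with Nkx3-2 at −0.49 ± 0.09 and Nr5a1, a gonadal nuclear receptor, at −0.51 ± 0.09 (SE; −0.12 and −0.14 so scaled). For SoxF in endoderm and vessels, 9 of 12 were lower and 1 higher (median −0.48), with the endoderm factors Gata6 at −0.56 ± 0.08 and Foxa2 at −0.46 ± 0.08 (SE; −0.19 and −0.09 on kept regions). For SoxB and SoxC in neural cells, 11 of 14 were lower and 1 higher (median −0.48), with Pou3f2, a neural POU factor, at −0.45 ± 0.08 (SE; −0.09 on kept regions). With kept-region scaling 5, 2, 2 and 6 regions of these lists were lower and 3, 1, 2 and 2 higher. Of kept regions 59.1% were lower and 10.3% higher with TMM, and 23.3% and 27% with kept-region scaling. Of all regions the shares were 28.9% and 27.9%, and 10.7% and 49.2%. In these lists 10, 7, 12 and 13 genes had a peak in all 8 peak lists.

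The genes outside the family whose Suz12 density over the 8 libraries lay closest to the median profile of the 10 were Adra1d, Hoxd10 and Hoxd11, at root mean square differences of 0.05, 0.06 and 0.06 on the log2 scale. Hoxd10 and Hoxd11 share 1 region (chromosome 2, 74678278 to 74685603). Its change of −0.44 ± 0.08 and that of Adra1d, −0.35 ± 0.08 (SE), are given for comparison only.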

How the data were processed

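Bowtie alignment and MACS peak calling on mm10 (GRCm38) are named, without versions, in the submitters' processing notes. Each of the 8 deposited lists holds the peaks of 1 library. Per the file headers it also holds read counts over those peaks in 13 columns, and these deposited counts are raw whole numbers. The column names placed 8 of the 13 in the groups used. The other 5 were not used. Triptolide columns carry replicate numbers and the index TGACCA. DRB columns carry an index (ATCACG or TGACCA) and no replicate number of the labels, so DRB libraries are named by index and DRB lists by replicate. Both columns of each triptolide group carry the same index and lane number, so these names do not identify single lanes. No lane number in the names is shared by untreated and treated libraries, so lane and treatment cannot be told apart.

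Peaks overlapping by 1 bp were merged. A region took the counts over its widest peak, and a gene the regions within 1 kb of either annotated end (RefSeq, GRCm38.p6). Per library 1323928 to 7340033 reads were counted. Pairs of replicates differed by more than sampling noise, so none was treated as 1 library. Chi-square per degree of freedom was 8.65 at DRB 12 h and 2.47 to 3.23 in the other groups. Counts were tested in edgeR 4.0.16 by quasi-likelihood with TMM scaling, 4 groups, no filter and Benjamini-Hochberg adjustment over 11943 regions. The spread was estimated from all 8 libraries together, also for the tests of a single drug. Fold changes are treated over untreated. DESeq2 1.42.0, other scalings, filters, counted peaks, windows and left-out libraries were alternatives. On simulated data with 200 of 11943 regions changed, the test over both drugs recovered 54% of the 1.5-fold changes and 88% of those of 2-fold. It called 10 regions that had none. Changes were drawn in both directions and in few regions, so these rates do not measure the error from the choice of scaling. The members and gene lists were chosen with earlier results of these data known. All 10 genes and the other Sox genes are named. From each further list the rule takes up to 2 genes of highest mean density. One gene so chosen is not reported here. It also takes the 3 most similar genes.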

Additional observations from a re-analysis of the deposited data

How the results depend on the processing

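All 10 genes had a peak in every list with windows of 2.5 and 0.5 kb, with peaks of at least the median width (1357 bp), with 0.5 of the peak inside the gene and its window, and without any 1 list. The wider window and the left-out list could not have lowered this number. For these settings no share of all genes is given. The number of genes lower over both drugs was 6. It was 1 with kept-region scaling, 3 with the sum of counts, and 3 to 8 without any 1 library (3 without DRB 0 h index ATCACG, triptolide 0 h replicate 2 or triptolide 9 h replicate 1). Under DRB it was 3, with 1 under kept-region scaling, 1 with the DRB groups alone and 3 to 5 without any 1 library (5 without DRB 12 h index ATCACG). Under triptolide it was 3, with 0 under kept-region scaling, 6 with the triptolide groups alone, and 3 to 5 without any 1 library (5 without either DRB 12 h library). With the replicate block in that fit of the triptolide groups alone it was 7. For fits of groups alone or without a library no share of all regions is given. Their counts therefore cannot be read as particular to the 10 genes. Deviations of same-numbered triptolide libraries correlated at 0.391 over regions, but with 2 pairs and no stated pairing the libraries share only a number. With kept-region scaling the log2 change over both drugs had the opposite sign at Sox1 (0.11), Sox7 (0.16), Sox8 (0.13), Sox10 (0.20), Sox18 (0.03) and Sox21 (0.04), and with the sum of counts at Sox10 (0.03). Scaling itself moves these values, and the cause of the differences between libraries was not tested. Sox11 and Sox17 kept their direction and call in all 15 alternatives, at 0.42 to 0.88 and at −0.79 to −0.35. Of these, the choice of the region that holds the start site repeats the main fit at every gene but Sox14. The number of genes whose treated and untreated libraries did not overlap was 4 lower and 1 higher with TMM (25.2% and 24.4% of all regions). It was 3 and 2 with kept-region scaling (9.25% and 42.8%), and 3 and 1 with the sum of counts (16.2% and 34%). Of kept regions the shares were 53% and 8.46%, 21% and 23.4%, and 36.4% and 15.1%, in the same order. The other scalings of this number, the alternatives of the drug difference (0 in each) and the values within an index were added after seeing the data. Within an index the DRB change of Sox10 was 0.01 (ATCACG) and −0.26 (TGACCA). Depth limits precision most in the DRB 0 h library of index ATCACG, with 1323928 reads over regions.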
